A study of Mus musculus with 22 samples.

Results

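A set of 10 imprinted growth genes is described here across the genotypes and ages of a mouse lung epithelium RNA-seq series: H19, Igf2, Meg3, Dlk1, Rian, Cdkn1c, Peg3, Plagl1, Grb10 and Mest. They were chosen by name as imprinted genes of growth control, after the E18.5 values of H19 and Igf2 in Nkx2.1 mutant libraries had been seen to differ from wild type, so the differences of these genes are given as descriptions. Of the 10 genes, 9 were measured among 13750 genes late in gestation (E18.5, an embryonic day shortly before birth) and 7 among 15958 genes at 6 months. Rian was not analysed here at either age, and H19 and Dlk1 were not analysed here at 6 months.

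The series holds 22 libraries of lung epithelial cells. Magnetic beads against EpCAM, a surface protein of epithelia, enriched the E18.5 cells. The 6-month cells came from a flow cytometry gate set to keep EpCAM+ cells and to remove CD45+ leukocytes and CD31+ endothelium. Markers of both removed types were nonetheless measured in those libraries, with values given below. WT carried NANCI-+/+. NANCI denotes animals homozygous for the reporter allele (NANCI-CreERT2:RFP/CreERT2:RFP), named for a tamoxifen-dependent Cre recombinase and a red fluorescent protein at the long noncoding RNA NANCI. Nkx denotes Nkx2.1-GFP/+, heterozygous for a GFP allele of the lung transcription factor Nkx2.1, and Double denotes NANCI-CreERT2:RFP/+:Nkx2.1-GFP/+, which carries a single copy of each. There were 3 libraries of each genotype at E18.5, and 3 WT, 3 Nkx and 4 Double libraries at 6 months. No other allele or treatment is named in the labels for any group, and no deletion limited to a cell type is named.

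Imprinted genes are expressed mainly from the copy inherited from a single parent, because DNA methylation laid down in the germ line marks the parental copies differently. Igf2, expressed from the paternal copy, encodes insulin-like growth factor 2, which promotes fetal growth through the IGF1 and insulin receptors. H19 is a neighbouring noncoding RNA expressed from the maternal copy, and both genes use shared enhancers under a control region that lies between them. In another imprinted domain, Dlk1, a paternally expressed transmembrane protein related to Notch ligands, lies beside the maternally expressed noncoding RNAs Meg3, Rian and Mirg, which contain many snoRNAs and miRNAs. Both domains are typically active in fetal tissue and much less so after birth.

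On GRCm38, H19 lies on chromosome 7 at 142575529 to 142578143 (minus strand, long noncoding RNA), and Igf2 at 142650766 to 142666816 on the same strand. Cdkn1c lies farther along chromosome 7, at 143458339 to 143461050 on the minus strand. Dlk1 lies on chromosome 12 at 109452823 to 109463336 (plus strand), and Meg3 at 109541001 to 109571726 on the same strand. Their small RNAs are shown because the noncoding members are hosts of them, and because the loci inside Mirg were measured at E18.5. The sequences are the mature miRNAs of RefSeq (GRCm38.p6), 5′ to 3′, with the seed, bases 2 to 8, in capitals. The first pair comes from Mir675 inside H19, the others from Mirg.
miR-675-5p: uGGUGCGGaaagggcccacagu
miR-675-3p: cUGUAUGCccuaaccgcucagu
miR-134-5p: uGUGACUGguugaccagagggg
miR-154-5p: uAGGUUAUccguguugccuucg
miR-382-5p: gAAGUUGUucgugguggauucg
miR-541-5p: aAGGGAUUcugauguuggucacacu
miR-453: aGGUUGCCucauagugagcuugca
miR-496a-5p: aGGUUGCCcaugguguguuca
Of these, miR-453 and miR-496a-5p share the seed GGUUGCC, and the others each have a seed of their own. The libraries measured gene loci, so a row named for a miRNA can hold reads of its host transcript, and mature miRNAs were not measured.

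Expression is given as the deposited log2 value, on a scale that gives all libraries of an age nearly the same distribution, with 1 as the lowest value. The sources used here do not say whether values were divided by gene length, so levels are not compared between genes. A difference is a mean log2 value minus another, with its standard error and an adjusted p from limma, Benjamini-Hochberg adjusted over all genes of the age, and it is called at an adjusted p under 0.05. Read totals per library are not in the files.

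Nkx2-1 itself, the gene carrying the GFP allele, was the first check on the labels. Its E18.5 values ran from 14.48 to 14.93 in WT, 14.73 to 14.95 in Nkx and 14.69 to 14.90 in Double, and these ranges overlapped (Nkx minus WT 0.07 ± 0.14, limma adjusted p = 0.82). At 6 months Nkx (13.77 to 13.96) lay below WT (14.17 to 14.55) without overlap, a difference of -0.52 ± 0.17 that did not pass (limma adjusted p = 0.128). Double (13.75 to 14.43) overlapped WT at that age, with replicate 3 inside the WT range (-0.35 ± 0.16, limma adjusted p = 0.114). The epithelial marker list of 11 genes averaged 13.16 to 14.22 over the embryonic libraries. Every other genotype overlapped WT (13.16 to 14.03), while NANCI (13.35 to 13.66) lay below Double (13.74 to 14.22). Of that list Cdh1, Esrp1 and Epcam were called higher in embryonic Double than in WT, beside 7.13% of all genes. Sftpc was called lower (-1.20 ± 0.31, limma adjusted p = 0.0207), beside 7.47%. In the adult libraries the list averaged 13.57 to 13.58 for WT, 13.89 to 13.97 for Nkx and 14.39 to 14.63 for Double, without overlap. By Xist and Y-linked genes, the 3 NANCI libraries had a male pattern and the 4 Double libraries of 6 months a female pattern, and the other groups held both. Replicate 3 of Nkx at E18.5 stood apart by carrying Xist at 11.34 together with Y-linked genes at 11.84 to 12.86.

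H19 was the gene that differed most among the members at E18.5. In WT libraries 1 to 3 its log2 values were 12.67, 12.12 and 11.81, and in the NANCI libraries 12.78, 12.20 and 12.91. In the Nkx libraries they were 14.37, 16.25 and 15.69, and in the Double libraries 17.03, 18.45 and 17.24. Every Nkx library lay above every WT and NANCI library, and every Double library above every Nkx library, while WT and NANCI overlapped. By rank from the top of the library, H19 stood at place 1299 to 2626 in WT, 29 to 229 in Nkx and 3 to 12 in Double. H19 was 3.23 ± 0.45 higher in Nkx than in WT (9.41-fold, limma adjusted p = 0.0013) and 5.37 ± 0.45 higher in Double than in WT (41.5-fold, limma adjusted p = 4.09e-05). In bulk cells, more cells that express a gene and more of its RNA per cell cannot be told apart.

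Igf2, the growth factor of the pair, showed the same order. Its WT values were 13.73, 13.65 and 13.48, its NANCI values 13.90, 13.70 and 13.96, its Nkx values 14.62, 15.15 and 15.27, and its Double values 15.95, 17.03 and 15.98. Again no Nkx library overlapped WT or NANCI, and no Double library overlapped Nkx. The differences were 1.40 ± 0.26 for Nkx minus WT (2.63-fold, limma adjusted p = 0.00661) and 2.70 ± 0.26 for Double minus WT (6.50-fold, limma adjusted p = 6.47e-05). Igf2os, an antisense transcript overlapping Igf2 on the plus strand, was 1.87 ± 0.24 higher in Double than in WT (limma adjusted p = 0.000361). The sources used here do not say whether the counting kept strand, and reads of Igf2 and Igf2os then cannot be told apart.

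Double, which carries a copy of the NANCI allele that Nkx lacks, lay above Nkx in both genes by group ranges. The test over all genes did not pass, and the part of the allele was not tested apart from other differences between the groups. H19 was 2.14 ± 0.45 higher in Double than in Nkx (limma adjusted p = 0.419) and Igf2 1.30 ± 0.26 higher (limma adjusted p = 0.321). In a fit added after the data were seen, the Nkx and Double libraries were taken alone and paired by replicate number. There H19 passed (limma adjusted p = 0.0152), Igf2 did not (0.0947), and 9 of all genes passed. The labels state no such pairing, which was taken from correlations in these same values, so the pass carries no weight as a test. In both groups replicates 1 and 2 had a female pattern and replicate 3 a male pattern, so the pairing also follows the sex pattern. In the model of all libraries 0 of 9 members passed, and among all 13750 genes a single gene did (0.00727%, in the higher direction), with 559 genes at an unadjusted p under 0.05. Homozygous NANCI animals differed from WT by 0.43 ± 0.45 in H19 and 0.24 ± 0.26 in Igf2, both with overlapping ranges and limma adjusted p = 0.978.

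H19 and Igf2 lay higher in Nkx and Double than in WT within each sex pattern. Among libraries with a female pattern, H19 lay at 11.81 to 12.12 in WT, 14.37 to 16.25 in Nkx and 17.03 to 18.45 in Double. The single male-pattern libraries stood at 12.67, 15.69 and 17.24. Double minus WT was 5.78 for H19 and 2.93 for Igf2 over the female-pattern libraries, and 4.57 and 2.25 in the male-pattern pair of single libraries. Nkx minus WT was 3.34 and 1.32 over the female-pattern libraries, and 3.02 and 1.54 in the male-pattern pair, whose Nkx library is the one that carried both patterns. Without replicate 3 of Nkx, which carried both patterns, the Nkx minus WT difference was 3.10 for H19 (limma adjusted p = 0.00868) and 1.27 for Igf2 (limma adjusted p = 0.0354).

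**Figure D1:**
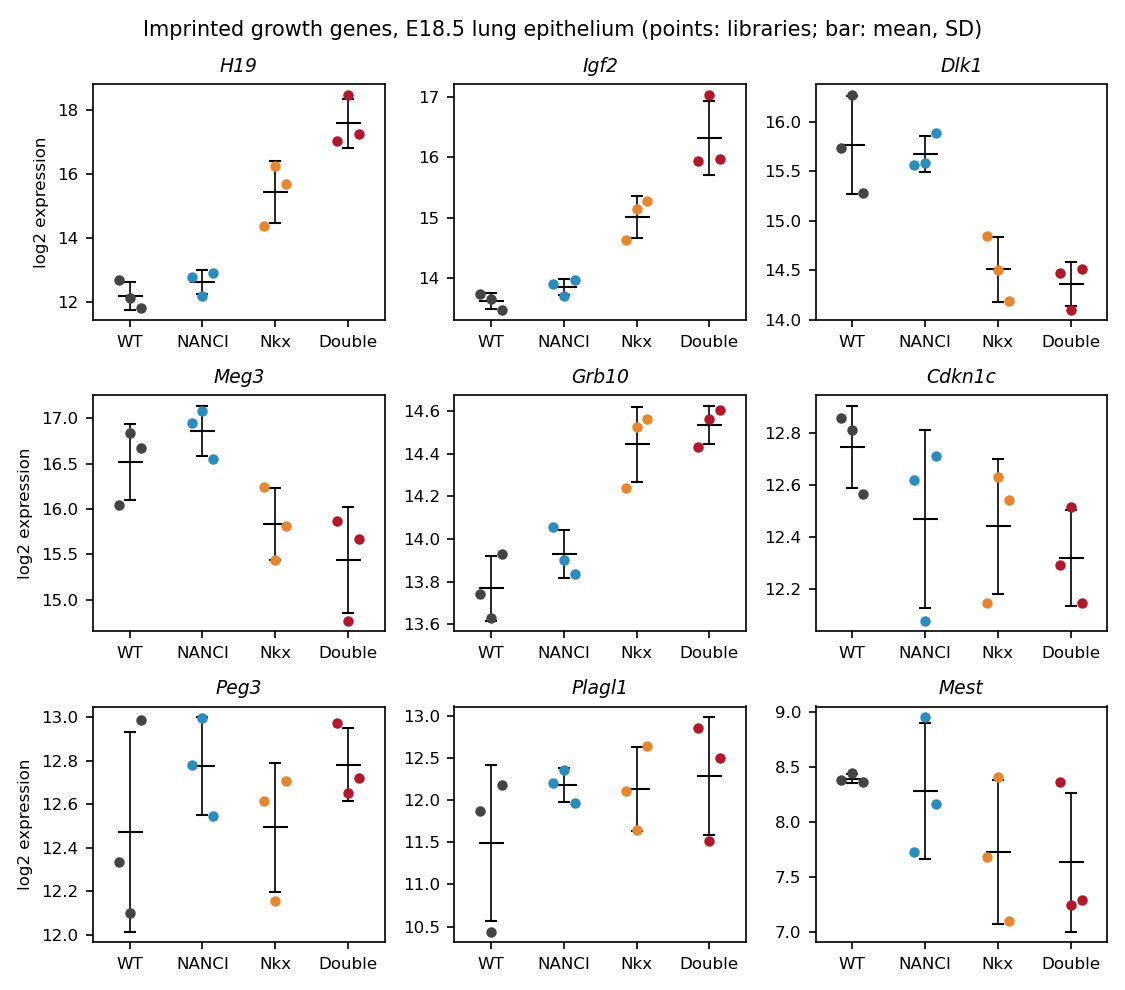
Deposited log2 expression (vertical axis, own scale per panel) of the 9 measured imprinted growth genes in the 12 E18.5 libraries, by genotype; points are libraries, bars the mean and SD of 3. H19 and Igf2 step up from WT and NANCI to Nkx to Double without overlap between those steps, and Dlk1 lies lower in all Nkx and Double libraries (14.10 to 14.84) than in all WT and NANCI libraries (15.29 to 16.27).

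Counted over the members, Nkx against WT gave 3 higher (H19, Igf2 and Grb10) and 1 lower (Dlk1) of 9, beside 7.32% of all genes called in that comparison, 3.67% higher and 3.65% lower. Double against WT gave the same 3 higher and 2 lower (Dlk1 and Meg3) of 9, beside 14.6% of all genes, 7.13% higher and 7.47% lower. NANCI against WT gave 0 of 9 members and 0 of 13750 genes by limma (0%), where 426 genes had an unadjusted p under 0.05. The members' median difference was 0.02 in Nkx and 0.31 in Double, against 0.02 over all genes in each. Since the members were listed with these contrasts known, their counts carry no weight as a test. Nkx and Double were compared with the same 3 WT libraries, so these counts share their controls.

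The tie of H19 with Igf2 was examined library by library. Because the 12 libraries fell into separate clusters, WT with NANCI and Nkx with Double, no pooled correlation was tested. Over the 6 WT and NANCI libraries Pearson's r was 0.945 (exact permutation p = 0.00139, 0.00556 adjusted over 4 relations) and Spearman's rho 1 (exact permutation p = 0.00278), both two-sided. The only libraries of that cluster with a female pattern, WT replicates 2 and 3, were lowest in both genes. The part of the sex pattern in this relation was not tested. Over the 6 Nkx and Double libraries r was 0.964 and rho 0.943. Both were among the 4 relations of the adjustment. No p is given for them, because Nkx and Double did not overlap in either gene. On deviations from the group means, with libraries permuted within their genotype, r was 0.959 over WT and NANCI (exact permutation p = 0.0278, the smallest the 36 orders can give) and 0.880 over Nkx and Double (exact permutation p = 0.0833, which does not pass). That within-genotype test was added after the data were seen. Without the 2 libraries farthest from the median of H19, r was 0.838 over 4 WT and NANCI libraries (exact permutation p = 0.0417) and 0.902 over 4 Nkx and Double libraries. With each library centred on housekeeping genes, r over the WT and NANCI libraries was 0.738 (exact permutation p = 0.108), so the relation in that cluster depends on the scaling. Without replicate 3 of WT r was 0.893 (exact permutation p = 0.0833), while rho was 1 without any single library of that cluster (exact permutation p = 0.0167 each).

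H19 rose more steeply than Igf2. The difference H19 minus Igf2 within a library averaged -1.42 ± 0.32 in WT, -1.22 ± 0.24 in NANCI, 0.42 ± 0.68 in Nkx and 1.26 ± 0.17 in Double (SD, n = 3 each). It lay between -1.67 and -1.05 in all WT and NANCI libraries, and between -0.26 and 1.42 in all Nkx and Double libraries. The sign of this difference depends on gene length and is not read as which transcript was more abundant.

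**Figure D2:**
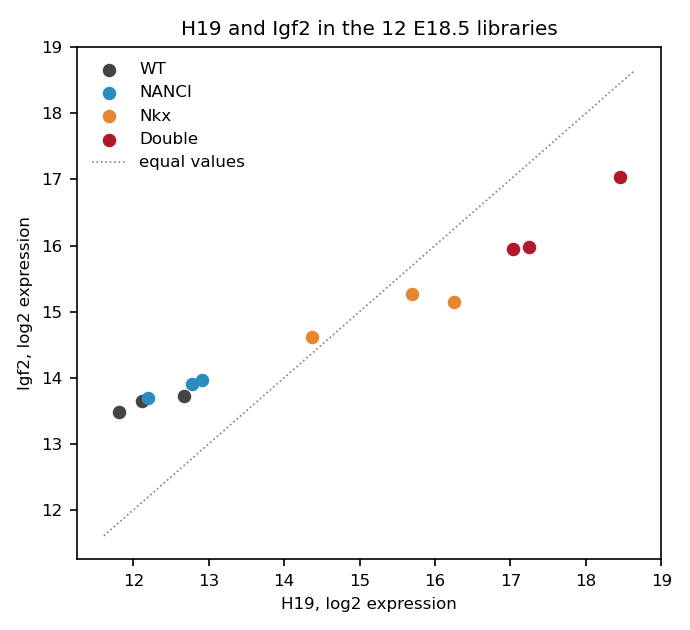
Deposited log2 expression of Igf2 (vertical axis) against H19 (horizontal axis), one point for each of the 12 E18.5 libraries, coloured by genotype, with a dotted line of equal values. The WT and NANCI libraries group at H19 values of 11.81 to 12.91, the Nkx libraries at 14.37 to 16.25 and the Double libraries at 17.03 to 18.45, and Igf2 follows in order with a shallower slope.

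Among 13451 genes with a mean log2 value of at least 5, Igf2 was the gene whose values over the 12 E18.5 libraries were most like those of H19 (r = 0.988, as a measure of likeness with no test). Birc5, an inhibitor of apoptosis that acts in mitosis, came next (0.983), then Arl2bp (0.978), Mcm6, a subunit of the replicative helicase (0.976), and Gsto1, a glutathione transferase (0.974). H19 in turn was first in likeness to Igf2. Dlk1 and Meg3 ran opposite to H19, with r of -0.891 and -0.900 over the same libraries. They stood at places 13124 and 13172 of 13451, so the genes at later places ran more opposite to H19. All these r hold the separation of the genotype clusters and carry no test.

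Dlk1, the paternally expressed protein of the chromosome 12 domain, was lower in the Nkx and Double libraries. Its WT values were 15.74, 16.27 and 15.29 and its NANCI values 15.57, 15.58 and 15.89. In Nkx they were 14.84, 14.50 and 14.19, and in Double 14.47, 14.10 and 14.51. All Nkx and Double libraries lay under all WT and NANCI libraries, and Nkx and Double overlapped. Dlk1 fell by 1.25 ± 0.24 on the log2 scale in Nkx (limma adjusted p = 0.00765) and by 1.40 ± 0.24 in Double (limma adjusted p = 0.00224).

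Meg3, the maternally expressed noncoding RNA of that domain, stood at 16.04, 16.84 and 16.67 in WT and at 16.94, 17.08 and 16.56 in NANCI. It stood at 16.25, 15.44 and 15.82 in Nkx and at 15.87, 14.77 and 15.67 in Double. Double lay below WT without overlap, whereas replicate 1 of Nkx lay within the WT range. Meg3 fell by 1.08 ± 0.31 in Double (limma adjusted p = 0.0338), and its Nkx minus WT difference was -0.68 ± 0.31 (limma adjusted p = 0.222). The Double call ended without the variance trend (limma adjusted p = 0.0501), with both groups fitted alone (0.0938) and with housekeeping centring (0.0863). It also ended without WT replicate 2 (-0.92, limma adjusted p = 0.105), WT replicate 3 (-1.001, 0.0592), Double replicate 2 (-0.75, 0.129) or Double replicate 3 (-1.20, 0.0546).

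Inside Rian, 10 snoRNA genes were measured at E18.5, and inside Mirg 6 miRNA genes, listed after their values were seen. In Double minus WT all 16 were below 0 (median -1.50, range -1.98 to -0.72), and 2 passed, a share under the 14.6% of all genes. In Nkx minus WT all 16 were below 0 as well (median -0.87), and 1 passed, under the 7.32% of all genes. In NANCI minus WT all 16 were above 0 (median 0.53), and 0 passed. The library means of the Rian loci overlapped between genotypes, at 5.93 to 8.42 in WT, 5.63 to 6.67 in Nkx and 4.49 to 6.57 in Double. Those of the Mirg loci were 4.86 to 6.67 in WT and 4.28 to 4.89 in Nkx, with overlap, and 3.74 to 4.84 in Double. The 16 rows lie in transcripts of the same domain and can share reads of one host, so they are not separate measurements of it.

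The locus Mir134, whose mature sequence carries the seed GUGACUG shown above, passed in both comparisons. WT stood at 5.30, 6.74 and 6.04, NANCI at 6.47, 6.72 and 5.99, Nkx at 3.94, 4.67 and 4.196, and Double at 4.58, 4.01 and 3.84. Every Nkx and Double library lay below every WT and NANCI library. Mir134 fell by 1.76 ± 0.43 in Nkx (limma adjusted p = 0.0286) and by 1.88 ± 0.43 in Double (limma adjusted p = 0.012). With both groups fitted alone the calls ended (limma adjusted p = 0.102 and 0.0601), and with housekeeping centring the Nkx call did (0.0542). The Nkx call also ended without WT replicate 2 (0.11), Nkx replicate 1 (0.0805) or Nkx replicate 3 (0.0922), and the Double call without WT replicate 2 (0.0524). The snoRNA gene Gm23600 inside Rian stood at 6.67, 6.95 and 8.68 in WT and at 6.18, 4.71 and 5.47 in Double, a fall of 1.98 ± 0.57 (limma adjusted p = 0.0346) that ended with both groups alone (0.0894) and with housekeeping centring (0.0761). It also ended without WT replicate 3 (0.0819), Double replicate 2 (0.132) or Double replicate 3 (0.0859).

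Neighbouring genes were read around both pairs, within 1 Mb. Around Dlk1 and Meg3, 24 genes outside the list were measured at E18.5, 16 of them the small RNA loci. In Double, 2 of 24 were called lower, Gm23600 and Mir134, beside 7.47% of all genes. Another 2 were called higher, Evl (0.56) and Degs2 (2.45), beside 7.13% of all genes, and both lie upstream of Dlk1. The Evl call ended in 6 of 12 alternatives (limma adjusted p up to 0.168), among them those without WT replicate 3 or any one Double replicate, and the Degs2 call ended without Double replicate 2 (0.0632). Around H19 and Igf2, 20 other genes were measured at E18.5, and 6 were called higher in Double, beside 7.13% of all genes. They were the gel-forming mucins Muc2 (3.50), Muc5ac (4.05) and Muc5b (4.26), the synaptotagmin Syt8 (6.38), Igf2os (1.87) and the potassium channel gene Kcnq1 (1.15). Igf2os overlaps Igf2 and its row can hold reads of Igf2, so it is not a neighbour measured apart from Igf2. In Nkx 5 of 20 were called higher, beside 3.67% of all genes. They were the same genes without Igf2os, which stood at 0.79 ± 0.24 (limma adjusted p = 0.068). The Nkx calls ended in 7 of 12 alternatives for Kcnq1 (limma adjusted p up to 0.125, with WT replicate 2 the only library whose removal kept it), in 3 for Muc5b (both groups alone and without WT or Nkx replicate 1) and in 1 for Syt8 (both groups alone). The genes between and beyond these did not pass, with a median difference of the 20 of 0.10 in Double, so the called genes were interspersed with genes that were not called. At 6 months 24 other genes were measured around H19 and Igf2. In Double against WT 8 were called higher and 2 lower, beside 18.4% and 17.9% of all genes. Syt8 (7.93), Muc5b (5.87), Muc5ac (5.02) and Kcnq1 (1.14) were among the 8, while Igf2 was not called (-0.82 ± 0.48). Around Dlk1 and Meg3, 2 of 8 were called higher and 0 lower, with Degs2 at 3.85.

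**Figure D3:**
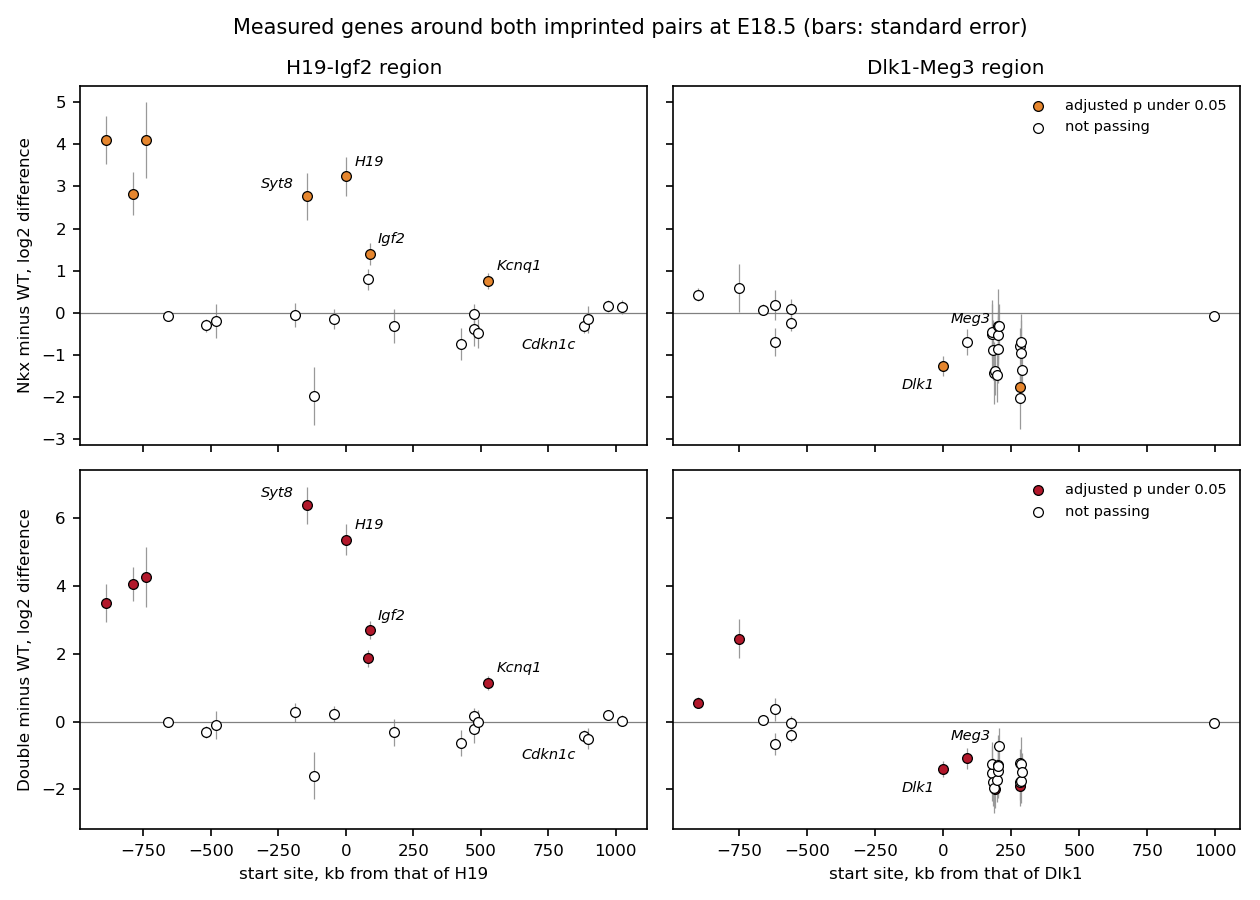
Log2 difference (vertical axis, bars standard error) of each measured gene within 1 Mb of H19 and Igf2 (left) and of Dlk1 and Meg3 (right) at E18.5, by distance of its start site from that of H19 or Dlk1 in kb, for Nkx minus WT (top) and Double minus WT (bottom); filled points passed at an adjusted p under 0.05. In Double, H19 (5.37), Syt8 (6.38) and the mucins stand high among genes near 0, and the small RNA loci beyond Meg3 all lie below 0.

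Promoter letters are shown for Dlk1 and Meg3, which were lower in Double at E18.5, and for Igf2, which was higher. They are also shown for Grb10, the only member with a match to the NKX2 core given below. RefSeq (GRCm38.p6) gives windows for 8 of the 10 members, 15 windows in all, and the 250 bases before each start are printed 5′ to 3′ on the gene's strand. Capitals mark matches to the core of NKX2 binding sites, CAAGTG, or to the TATA box letters TATAAA, each on either strand. Matches to CAAGTG occur in 11.6% of 32817 mouse windows of this length and matches to TATAAA in 12.4%. The windows are chr12:109452573-109452822 (plus) for Dlk1, chr12:109540746-109540995 (plus) for Meg3, chr7:142657497-142657746 (minus) for the most downstream of 4 Igf2 starts, and chr11:12027972-12028221 (minus) for an alternative Grb10 start.
Dlk1: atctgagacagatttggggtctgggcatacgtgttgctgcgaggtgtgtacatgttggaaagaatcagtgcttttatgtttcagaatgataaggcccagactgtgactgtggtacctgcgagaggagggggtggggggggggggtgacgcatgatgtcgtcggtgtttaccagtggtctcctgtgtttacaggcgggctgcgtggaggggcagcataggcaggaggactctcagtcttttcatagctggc
Meg3: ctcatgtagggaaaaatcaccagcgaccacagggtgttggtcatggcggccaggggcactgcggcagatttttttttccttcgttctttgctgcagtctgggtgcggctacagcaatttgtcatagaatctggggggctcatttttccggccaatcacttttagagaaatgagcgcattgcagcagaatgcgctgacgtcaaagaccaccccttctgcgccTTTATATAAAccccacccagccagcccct
Igf2: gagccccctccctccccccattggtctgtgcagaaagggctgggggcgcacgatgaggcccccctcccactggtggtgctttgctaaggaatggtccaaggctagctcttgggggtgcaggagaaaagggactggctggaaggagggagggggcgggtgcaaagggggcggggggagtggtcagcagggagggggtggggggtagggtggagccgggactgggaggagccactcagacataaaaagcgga
Grb10: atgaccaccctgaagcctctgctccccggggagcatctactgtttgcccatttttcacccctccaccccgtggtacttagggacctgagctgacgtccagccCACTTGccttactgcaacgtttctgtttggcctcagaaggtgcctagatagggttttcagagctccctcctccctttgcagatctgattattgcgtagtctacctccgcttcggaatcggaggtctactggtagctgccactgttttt
The Grb10 window held 1 match to CAAGTG, as its reverse complement CACTTG, and it was the only member window of the 15 with a match to that core. The Meg3 window held 2 overlapping matches to TATAAA near its end. These are matches of letters, and the windows without one say only that the letters are not in them.

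Grb10 encodes an adaptor that binds the insulin and IGF1 receptors and restrains their signalling. At E18.5 WT stood at 13.74, 13.63 and 13.93, NANCI at 14.05, 13.90 and 13.83, Nkx at 14.24, 14.53 and 14.57, and Double at 14.43, 14.57 and 14.60. The Nkx and Double libraries lay above all WT and NANCI libraries. Grb10 rose by 0.68 ± 0.13 in Nkx (limma adjusted p = 0.00832) and by 0.77 ± 0.13 in Double (limma adjusted p = 0.00227). With housekeeping centring neither call held (0.62, limma adjusted p = 0.167, and 0.59, 0.119), and with both groups fitted alone the Nkx call did not (0.0618).

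The remaining members did not pass in any E18.5 comparison. Cdkn1c, the cell cycle inhibitor p57, ran from 12.56 to 12.86 in WT and from 12.15 to 12.52 in Double, without overlap (-0.42 ± 0.18, limma adjusted p = 0.155). It passed with housekeeping centring (-0.60, limma adjusted p = 0.0368). Peg3, a zinc finger protein, ranged from 12.10 to 12.997 over all libraries and Plagl1, a zinc finger transcription factor, from 10.44 to 12.85, with overlap of all groups. Mest, a paternally expressed protein of the hydrolase fold, lay at 8.36 to 8.44 in WT and at 7.24 to 8.37 in Double (-0.76 ± 0.39, limma adjusted p = 0.239).

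At 6 months the called members were Plagl1, Grb10, Meg3 and Cdkn1c, and Igf2 was not among them. For Igf2, WT stood at 7.56, 7.90 and 7.89, Nkx at 7.36, 6.86 and 7.94, and Double at 7.46, 5.48, 7.24 and 7.68. These ranges overlapped and no comparison of Igf2 passed (Double minus WT -0.82 ± 0.48, limma adjusted p = 0.201). Its rank from the top was 11346 to 11863 of 15958 genes in WT. Since H19 was not analysed here at this age, its tie with Igf2 was not computed.

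Plagl1, which did not pass at E18.5, was the member with the smallest adjusted p at 6 months. WT stood at 10.09, 10.25 and 9.79, Nkx at 10.12, 9.96 and 10.28, and Double at 11.05, 10.86, 11.18 and 11.65. All 4 Double libraries lay above all WT and Nkx libraries. It rose by 1.14 ± 0.18 over WT (2.21-fold, limma adjusted p = 0.000615) and by 1.06 ± 0.18 over Nkx (limma adjusted p = 0.00211). The 4 Double libraries had a female pattern, as did 1 WT library, which stood at 9.79 and lay below them.

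For Grb10 at 6 months, WT stood at 10.02, 10.16 and 10.22, Nkx at 10.12, 10.12 and 10.06, and Double at 10.41, 10.52, 10.49 and 10.74. Double lay above both other groups, by 0.41 ± 0.11 over WT (limma adjusted p = 0.0154) and 0.44 ± 0.11 over Nkx (limma adjusted p = 0.0175). Centred on housekeeping genes, the difference from WT was 0.08 (limma adjusted p = 0.731) and that from Nkx 0.33 (limma adjusted p = 0.182), so both calls rest on the deposited scaling. The calls also ended with the sex pattern as a covariate (0.34 over WT, limma adjusted p = 0.116), without WT replicate 1 (0.35 over WT, 0.0587) and without Nkx replicate 1 (0.45 over Nkx, 0.0557) or 3 (0.42 over Nkx, 0.0665).

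Meg3 was higher in Double than in WT at 6 months and lower at E18.5, and the difference between the ages was not tested. WT stood at 7.26, 7.15 and 8.01, Nkx at 6.04, 8.93 and 6.03, and Double at 10.62, 10.21, 8.75 and 8.84. Every Double library lay above WT, and Nkx replicate 2 lay within the Double range. Meg3 was 2.13 ± 0.68 higher in Double than in WT (limma adjusted p = 0.0296) and 2.61 ± 0.68 higher than in Nkx (limma adjusted p = 0.0186). The WT call ended with the sex pattern as a covariate (1.38, limma adjusted p = 0.238), without the variance trend (2.13, 0.0561), without WT replicate 1 (2.02, 0.0803) or 2 (1.97, 0.0942) and without Double replicate 1 (1.79, 0.0807) or 2 (1.93, 0.0675). The Nkx call ended without Nkx replicate 1 (2.13, limma adjusted p = 0.0855) or 3 (2.12, 0.0806) and without Double replicate 1 (2.27, 0.0506).

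Cdkn1c was lower in both mutant groups at 6 months. WT stood at 11.42, 11.81 and 11.43, Nkx at 10.44, 9.98 and 10.92, and Double at 10.65, 10.01, 10.38 and 10.998. All mutant libraries lay below all WT libraries, and Nkx and Double overlapped. Cdkn1c fell by 1.04 ± 0.25 in Double (limma adjusted p = 0.00667), a call that ended with the sex pattern as a covariate (-0.74, limma adjusted p = 0.0802). The Nkx minus WT difference was -1.11 ± 0.26 (limma adjusted p = 0.0507), and it passed with both groups fitted alone (0.0465) and without Nkx replicate 3 (-1.34, 0.0474). Peg3 (Double minus WT -0.51 ± 0.25) and Mest (-0.47 ± 0.22) did not pass (limma adjusted p = 0.14 and 0.115), and both passed with housekeeping centring (-0.84, limma adjusted p = 0.0453, and -0.80, 0.0324).

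**Figure D4:**
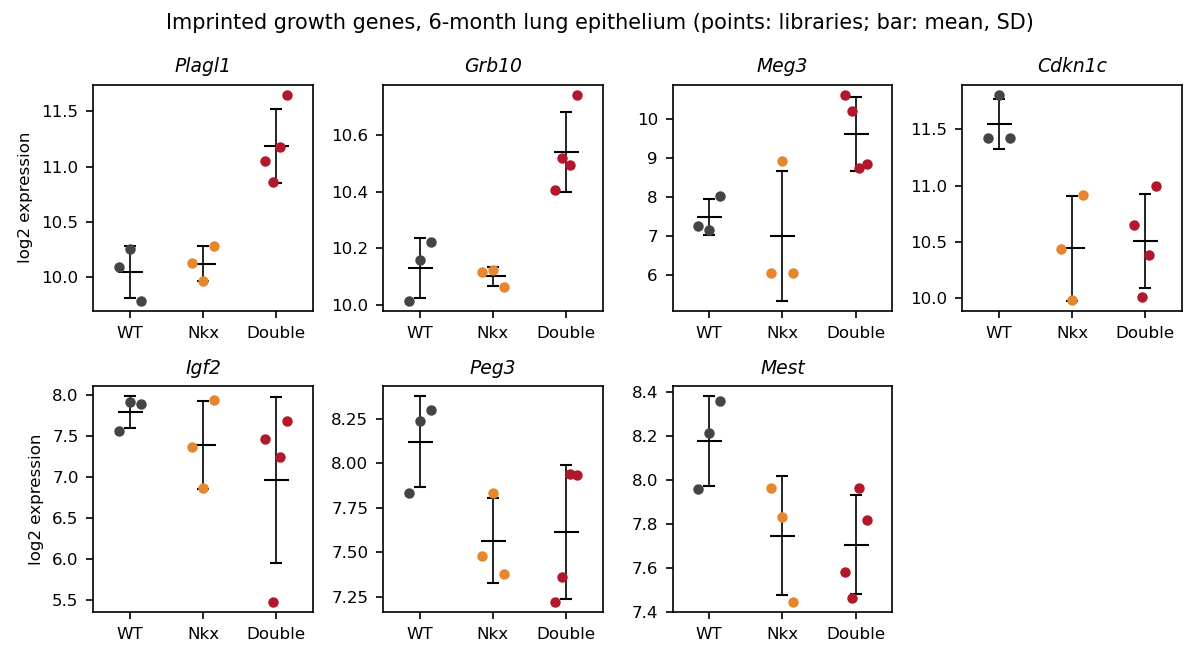
Deposited log2 expression (vertical axis, own scale per panel) of the 7 measured imprinted growth genes in the 10 libraries of 6 months, by genotype; points are libraries, bars the mean and SD. Plagl1 lies at 10.86 to 11.65 in the 4 Double libraries and at 9.79 to 10.28 in all others, and Cdkn1c at 9.98 to 10.998 in the Nkx and Double libraries under the WT libraries at 11.42 to 11.81.

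By count, Double against WT at 6 months gave 3 members higher (Plagl1, Grb10 and Meg3) and 1 lower (Cdkn1c) of 7, beside 36.3% of all genes called, 18.4% higher and 17.9% lower. Double against Nkx gave the same 3 higher of 7, beside 21.7% (10.2% higher and 11.5% lower), and Nkx against WT 0 of 7, beside 2.63% (1.52% higher and 1.11% lower, 419 genes called and 3495 at an unadjusted p under 0.05). The members' median difference was -0.47 in Double minus WT, against 0.06 over all genes. These comparisons share the Double or the WT libraries, and nothing is read from the counts.

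The scaling matters for such counts. Centring each library on a housekeeping list moved the median difference of all genes from 0.02 to -0.16 in the E18.5 comparison of Double with WT. At 6 months the same centring moved it from 0.06 to -0.26. The called genes in those comparisons were 981 higher and 1027 lower as deposited, against 439 and 993 when centred, at E18.5, and 2937 and 2858, against 1242 and 4677, at 6 months. In Nkx minus WT they were 505 higher and 502 lower, against 203 and 315, at E18.5, and 242 and 177, against 64 and 201, at 6 months. In Double minus Nkx at 6 months they were 1629 and 1831, against 941 and 2034. H19 and Igf2 rose, and Dlk1 fell, in both E18.5 comparisons under either scaling (H19 5.20, Igf2 2.53 and Dlk1 -1.58 in Double when centred).

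Other imprinted genes were read from a list of 56, of which 36 were measured at E18.5. In Double, 3 of 36 were higher (Kcnq1, Dcn and Slc38a4) and 4 lower (Qpct, Peg10, Nnat and Rasgrf1), beside 14.6% of all genes, with a median difference of 0.17. The 7 became 3 without Double replicate 2, 4 without WT replicate 2 or Double replicate 3, and 12 without WT replicate 3. Qpct, a glutaminyl cyclase, fell by 1.92 ± 0.17 (limma adjusted p = 4.09e-05) and Peg10, a gene of retrotransposon origin, by 1.75 ± 0.49 (limma adjusted p = 0.0319). Dcn, the matrix proteoglycan decorin, rose by 1.61 ± 0.43 (limma adjusted p = 0.0261), and Kcnq1 by 1.15 ± 0.20 (limma adjusted p = 0.00245). In Nkx, 2 were higher (Airn and Kcnq1) and 3 lower (Qpct, Ddc and Nnat), beside 7.32% of all genes, with a median of 0.06. The 5 became 2 with both groups alone and without WT replicate 1, Nkx replicate 1 or Nkx replicate 3, and 3 without WT replicate 2 or Nkx replicate 2. Of 12 alternatives the Nkx call of Airn ended in 9 (limma adjusted p up to 0.265), that of Kcnq1 in 7 and that of Nnat in 6. The Double calls of Peg10 and Dcn ended in 6 and 4, housekeeping centring among them (limma adjusted p = 0.0663 and 0.0975), while those of Qpct and Kcnq1 held in all 12.

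At 6 months, 8 of 38 other imprinted genes were higher in Double than in WT and 9 lower, beside 36.3% of all genes (18.4% higher and 17.9% lower), with a median of -0.02, and with the sex pattern as a covariate 10 in all were called. The antisense transcript Nespas rose by 4.22 ± 0.69 (limma adjusted p = 0.000763), and Ddc, aromatic amino acid decarboxylase, by 1.85 ± 0.51 (limma adjusted p = 0.0145). The Ddc call ended in 1 of the other settings (limma adjusted p = 0.103) and held without any single library. Dcn fell by 3.29 ± 0.41 (limma adjusted p = 0.000122) and Nnat, a small membrane protein, fell by 2.03 ± 0.39 (limma adjusted p = 0.00206). Nespas lies antisense to Gnas and Nesp transcripts, whose reads cannot be told apart from it without strand. Against Nkx, 13 of the 38 were called in Double, beside 21.7% of all genes. Nespas (4.08), Dcn (-3.29), Ddc (3.03) and Nnat (-2.20) differed most (limma adjusted p from 0.000394 to 0.00263). Nkx against WT gave 2 calls, beside 2.63%. They were Slc38a4 (1.55, limma adjusted p = 0.0415) and Blcap (-0.58, 0.0299), which ended in 10 and 9 of the alternatives.

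The genes through which IGF2 acts were read from a list of 20, with 17 measured at E18.5 and 19 at 6 months. The receptors did not pass at E18.5: Igf1r differed by -0.08 ± 0.29 in Double minus WT (limma adjusted p = 0.899), and Igf2r, the receptor that removes IGF2 and is itself imprinted, by 0.45 ± 0.14 (limma adjusted p = 0.0537). In Double, 3 of 17 were higher and 1 lower, beside 14.6% of all genes, with a median of 0.44. The 4 became 1 without WT replicate 1 or Double replicate 3, 2 without Double replicate 2 and 6 without WT replicate 3. The binding proteins Igfbp4 (1.79 ± 0.49) and Igfbp3 (1.60 ± 0.43) and the RNA-binding protein Igf2bp1 (0.54 ± 0.14) rose, and Igfbp6, which prefers IGF2, fell by 1.98 ± 0.35 (limma adjusted p from 0.00284 to 0.0299). In Nkx, Igfbp4 (1.99) and the protease Pappa (1.86), which cleaves IGF-binding proteins, were higher and Igfbp6 (-1.79) lower, beside 7.32% of all genes. The 3 became 0 without WT replicate 1, 1 without Nkx replicate 2 or 3 and 6 without WT replicate 3. With both groups fitted alone 1 of these calls was kept in Double and 0 in Nkx, and with housekeeping centring the calls of Igfbp3, Igf2bp1 and Pappa ended.

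At 6 months, 2 of 19 IGF pathway genes were higher in Double than in WT and 7 lower, beside 36.3% of all genes. Igfbp2 fell by 3.76 ± 0.62 (limma adjusted p = 0.000752), Igfbp4 by 3.10 ± 0.34 (5.15e-05) and Igfbp3 by 2.44 ± 0.32 (0.000158), all binding proteins. Stc2, a secreted inhibitor of Pappa, rose by 2.21 ± 0.42 (limma adjusted p = 0.0018). The median of the 19 was -0.24. Against Nkx, 7 of the 19 were called in Double, beside 21.7% of all genes. Igfbp2 (-4.50), Igfbp4 (-2.41), Igfbp6 (-2.31) and Igfals (2.07) differed most (limma adjusted p from 5.08e-05 to 0.00421). Nkx against WT gave 1 call, Irs1 (-1.30 ± 0.19, limma adjusted p = 0.0105), beside 2.63%, and it ended in 1 of the alternatives.

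Of 16 genes that read, write or maintain imprint methylation, 14 were measured at each age. In Double at E18.5, 3 of 14 were higher and 0 lower, beside 14.6% of all genes (7.13% higher): Uhrf1, which recruits the maintenance methyltransferase (1.40 ± 0.20, limma adjusted p = 0.000672), that enzyme Dnmt1 (0.48 ± 0.13, 0.0255) and the de novo methyltransferase Dnmt3a (0.37 ± 0.12, 0.0475). The 3 became 1 without WT replicate 1, Double replicate 1 or Double replicate 2, and 5 without WT replicate 3. Uhrf1 alone of them passed with housekeeping centring, and in Nkx it rose by 0.99 ± 0.20 (limma adjusted p = 0.0102). At 6 months Uhrf1 rose by 1.32 ± 0.34 in Double (limma adjusted p = 0.011), a call that ended with housekeeping centring (0.99, limma adjusted p = 0.0502). Dnmt3a was the other of 2 calls there (0.38 ± 0.13, 0.043), beside 36.3% of all genes, and it ended in 10 of the alternatives. Against Nkx, 5 of 14 were called in Double, beside 21.7%. Uhrf1 (1.91), Dnmt3b (0.88), Dnmt3a (0.68) and Tet3 (0.61) differed most. The calls of Dnmt3b and Tet3 ended in 6 and 9 of the alternatives. DNA methylation at the imprinted regions was not measured.

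Markers of other cell types also differed between these genotypes. NANCI lay below WT in the leukocyte and mesenchymal lists and overlapped WT in the mesothelial and endothelial lists. In Double against WT at E18.5, 7.13% of all genes were called higher and 7.47% lower. In NANCI against WT 0 genes were called. At E18.5 the leukocyte list (12 of 14 genes measured) averaged 7.64 to 7.96 in the WT libraries and 7.065 to 7.43 in NANCI. It averaged 4.91 to 6.11 in Nkx and 4.89 to 5.82 in Double, and 9 of 12 fell in Double. The mesothelial list (4 of 8 measured) averaged 7.88 to 8.11 in WT, 8.63 to 9.04 in Nkx and 9.67 to 9.91 in Double, and 3 of 4 rose in Double. The mesenchymal list (10 of 20 measured) averaged 7.89 to 8.36 in WT and 6.99 to 7.74 in NANCI. It averaged 7.035 to 7.61 in Nkx and 6.93 to 7.24 in Double, where 4 of 10 fell. The endothelial list (8 of 12 measured) averaged 7.33 to 8.29 in WT and 6.27 to 7.53 in Double, and 3 of 8 fell. Of 12 hepatocyte genes, a list added after the values were seen, 4 were measured, with Alb higher in Double (1.88 ± 0.22) and Apob lower (-2.35 ± 0.55). The part of these cell types in the H19, Igf2, Dlk1 and Meg3 differences was not tested.

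At 6 months 18.4% of all genes were called higher in Double against WT and 17.9% lower. The endothelial list (12 of 12 measured) averaged 11.2 to 12.3 in WT and 8.25 to 9.34 in Double at that age, and 12 of 12 fell. The leukocyte list (14 of 14 measured) averaged 8.36 to 8.63 in WT, 7.61 to 9.13 in Nkx and 7.77 to 10.48 in Double, with overlap. The mesenchymal list (18 of 20 measured) averaged 9.32 to 9.84 in WT and 6.65 to 8.32 in Double, and 14 of 18 fell. The mesothelial list (7 of 8 measured) averaged 7.76 to 7.92 in WT and 6.04 to 6.83 in Double, where 4 fell and Msln rose. The hepatocyte list (9 of 12 measured) averaged 5.28 to 6.20 in WT, 7.06 to 7.18 in Nkx and 8.57 to 9.35 in Double, and 7 of 9 rose in Double, with Apoa1 (7.67), Apob (6.07) and Ttr (5.29) first. Of the epithelial list 8 of 11 rose in Double. Dcn and several binding proteins named above are also expressed by mesenchymal cells, and Meg3 and Cdkn1c by several of these types. The part of these cells in the 6-month differences was not tested.

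**Figure D5:**
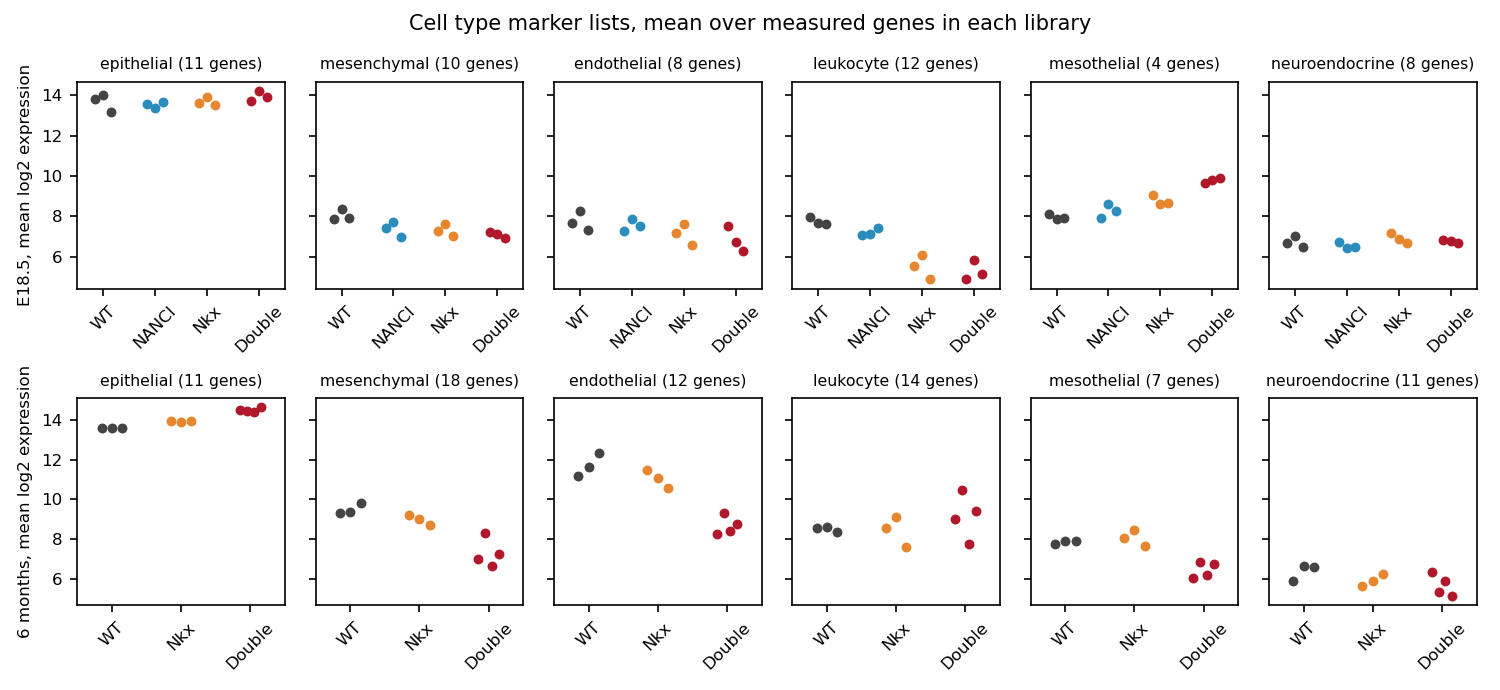
Mean deposited log2 expression over the measured genes of each cell type marker list (columns) in each library (points), by genotype, at E18.5 (top) and 6 months (bottom). At E18.5 the leukocyte list drops from 7.64 to 7.96 in WT to 4.89 to 5.82 in Double, and the mesothelial list lies highest in Double; at 6 months the endothelial and mesenchymal lists lie lowest in Double.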

How the data were processed

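The authors deposited 1 log2 value per Ensembl gene ID and library. STAR, limma and mm9 are named in the submitters' processing notes, without roles or versions. The median library SD at equal rank was 0.00187 at E18.5 and 0.00242 at 6 months, so the values were taken as quantile-normalized within each age, which hides read totals and makes a difference among the top genes a change of rank. Symbols and GRCm38 coordinates came from GENCODE M21, which matched 99.2% of IDs in the embryonic files and 96.2% in the adult files.

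Groups came from the labels. Nothing in the labels says that replicates came from separate animals, and p-values then measure spread among these libraries, which may be technical. For each age 1 limma model (limma 3.58.1, R 4.3.3, variance trend, group as the sole factor, no filter) was fitted over all genes, with 7 comparisons and Benjamini-Hochberg adjustment over all genes of a comparison. Replicate numbers were taken to pair libraries where every same-numbered pair of 2 groups had deviations correlated over 0.1, which held for Nkx and Double at E18.5 alone (r of 0.298, 0.504 and 0.18), a pairing the labels do not state. The H19 and Igf2 tie was tested by exact permutation over libraries in place of the planned resampling. The script was tested on simulated data. Members and lists were chosen with earlier results of these data known. The genes named are the members, up to 4 called genes with the largest change per list and comparison, and the 5 genes most like H19. Chosen after their values were seen were the called neighbours, small RNA loci, named cell type markers, Igf2r and Igf1r. The closing section gives the effect of 6 other settings and of leaving out each replicate.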

Additional observations from a re-analysis of the deposited data

Results flagged for a closer look

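Every Double library for Igf2, Meg3 and Peg3, and every Nkx library for Grb10, lay on one side of the WT mean at E18.5 and on the other side at 6 months. The share of all genes that do so is not given here, so nothing is read from the number of members. The other mutant genotype did not show this for these genes. The difference between the ages was not tested, because the ages were enriched by different methods and normalized separately. Igf2 in Double minus WT averaged 2.70 at E18.5 and -0.82 at 6 months, and Meg3 in Double minus WT averaged -1.08 at E18.5 and 2.13 at 6 months. Peg3 in Double minus WT averaged 0.31 at E18.5 and -0.51 at 6 months, and passed at neither age. Grb10 in Nkx minus WT averaged 0.68 at E18.5 and -0.0308 at 6 months, where its libraries lay close to the WT mean (-0.0702 to -0.00838). Of the 7 members in the 4 Double libraries of 6 months, none had a library past Dixon's limit, and Igf2 came nearest, where replicate 2 lay 0.801 of the range from the next library.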

How the results depend on the processing

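Over 57 member differences and 707 alternative fits, 634 kept their direction and side of the threshold, 28 lost the call, 6 gained one and 39 turned direction. No called difference turned direction. In 59 called differences of genes outside the members, alternatives chosen after seeing the data gave 727 fits, of which 147 lost the call and 0 turned.

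Member counts moved over 1.5 times as follows. In Nkx against WT at 6 months 0 became 1 with both groups fitted alone, and 0 to 1 when leaving out a replicate (1 without Nkx replicate 3). In Double against WT at 6 months 4 became 1 with the sex covariate and 2 to 4 when leaving out a replicate (2 without WT replicate 1). In Double against Nkx at 6 months 3 became 1 to 3 when leaving out a replicate (1 without Nkx replicate 1 or 3). Leaving out a library gave r for the H19 and Igf2 tie of 0.893 to 0.994 in WT and NANCI. The tie in those libraries was 0.738 with housekeeping centring, and in Nkx and Double it was 0.902 without the 2 farthest libraries and 0.8801 on deviations permuted within genotypes. The 6-month tie was not run, since H19 was not analysed there.

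Of the same-numbered pairs of libraries, 6 of 18 at E18.5 and 1 of 9 at 6 months had an r of deviations over 0.1 (mean 0.047 and -0.0841), and 6 of 12 and 1 of 9 libraries were closest to one of their own number. In Double against Nkx at E18.5, the only comparison with every pair over 0.1, the member count was 1 (H19) with both groups alone and the replicate block, and 9 genes passed in all. With the replicate block over all libraries, member counts were 4 in Nkx and 5 in Double against WT at E18.5, and 3 in Double against WT and 2 in Double against Nkx at 6 months, and no other member count changed. All genes called with the block fell from 419 to 131 in Nkx against WT and from 3460 to 2285 in Double against Nkx at 6 months, and Grb10 lost its 6-month calls (0.34 over WT and 0.37 over Nkx).

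Other counts over all genes were 491 with both groups alone and 518 with housekeeping centring in Nkx against WT at E18.5 (1007 in the model of all libraries), and 928 with both groups alone in Double against WT (2008). At 6 months they were 98 without trend, 265 with housekeeping centring and 228 with the sex covariate in Nkx against WT, and 3851 with the sex covariate in Double against WT (5795). Without the trend 3 genes passed in NANCI against WT, and with both groups alone 3 in Double against Nkx at E18.5. Leaving out a replicate gave 466 to 2179 in Nkx and 1182 to 2691 in Double against WT at E18.5, and 59 to 211 in Nkx against WT, 4445 to 5727 in Double against WT and 2204 to 3492 in Double against Nkx at 6 months. The E18.5 extremes in Nkx came without WT replicate 1 and WT replicate 3.

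Directions turned only in uncalled differences. With housekeeping centring they were 0.0434 (Dlk1) and 0.0175 (Mest) in NANCI minus WT, -0.0354 (Peg3) in Nkx minus WT and -0.0306 (Grb10) in Double minus Nkx at E18.5, and -0.14 (Plagl1) in Nkx minus WT, -0.042 (Cdkn1c) and -0.0583 (Peg3) in Double minus Nkx at 6 months. With the sex covariate they were 0.22 (Mest) in NANCI minus WT at E18.5 and -0.0403 (Peg3) in Double minus Nkx at 6 months. With the replicate block they were -0.0962 (Cdkn1c) and -0.0573 (Peg3) in Double minus Nkx at 6 months. Leaving out a replicate gave, at E18.5, -0.33 to 0.17 (Dlk1) and -0.45 to 0.16 (Mest) in NANCI minus WT, -0.17 to 0.28 (Peg3) in Nkx minus WT, and -0.31 to 0.0173 (Dlk1), -0.13 to 0.54 (Plagl1), -0.0115 to 0.15 (Grb10) and -0.46 to 0.25 (Mest) in Double minus Nkx. At 6 months it gave -1.44 to 0.00989 (Meg3), -0.0495 to 0.18 (Plagl1) and -0.0891 to 0.014 (Grb10) in Nkx minus WT, and -0.69 to 0.06996 (Igf2), -0.16 to 0.30 (Cdkn1c), -0.059 to 0.18 (Peg3) and -0.19 to 0.0677 (Mest) in Double minus Nkx. The causes were not tested. Read totals are unknown, so the precision of low values such as Igf2 at 6 months cannot be stated.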
